A study of Mus musculus with 6 samples.

Results

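The potassium channel genes of ductal smooth muscle considered here were *Kcnj8*, *Abcc9*, *Kcna5*, *Kcnma1*, *Kcnmb1*, *Kcne4*, *Kcnq5*, and *Kcnk3*. They were taken by gene symbol from the table of 23997 genes, and all 8 were present in it. The set covers ATP-sensitive, voltage-gated, calcium-activated, and leak channels, and it was chosen by gene name with the WT and KO FPKM values already known, so the differences between the groups are given below as a description and without a test. The libraries came from the ductus arteriosus (DA), the fetal vessel between the pulmonary artery and the aorta, of C57BL/6 mouse embryos at E17.5. The 3 libraries labelled WT were from wild type embryos, and the 3 labelled KO had the genotype Prdm6f/f; SM22-Cre. In the latter, Cre recombinase is driven by the promoter of *Tagln* (SM22) and acts on the floxed *Prdm6* alleles in smooth muscle cells (SMCs). The labels name no treatment for either group. Expression was measured by bulk RNA-Seq of whole DA as FPKM, the fragments mapped to a gene, scaled for the length of its transcript and the number of mapped fragments.

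Potassium channels let potassium leave the SMC, which holds its membrane potential negative and keeps voltage-gated calcium channels shut. At birth the rise in oxygen closes potassium channels of ductal SMCs, the membrane depolarizes, calcium enters, and the muscle contracts. The ATP-sensitive channel is built from the pore protein Kir6.1, encoded by *Kcnj8*, and the sulfonylurea receptor SUR2, encoded by *Abcc9*. Voltage-gated channels include Kv1.5 (*Kcna5*) and Kv7.5 (*Kcnq5*), and *Kcne4* encodes a small membrane protein that associates with voltage-gated channels and alters their current. The large-conductance calcium-activated (BK) channel has the pore protein encoded by *Kcnma1*, and *Kcnmb1* encodes the β1 subunit that makes it more sensitive to calcium in smooth muscle. *Kcnk3* encodes TASK-1, a leak channel that is open at rest.

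Several properties of the libraries bear on the values. The FPKM of the targeted gene *Prdm6* ranged from 19.8 to 48.4 in the libraries labelled WT and from 15.4 to 48.6 in those labelled KO, and since the deleted part of the gene is not stated, the whole-gene value cannot check the labels. All directions below therefore rest on the deposited labels. Library KO 0 held both *Xist*, at 81.0 FPKM, and the Y-linked *Ddx3y*, at 26.4 FPKM. In WT 0 and KO 1, *Xist* was at 67.0 and 82.8 FPKM and *Ddx3y* at 0 and 0.383 FPKM. In WT 1, WT 2, and KO 2, *Xist* was at 0.0530, 0.0431, and 0.0472 FPKM and *Ddx3y* at 24.0, 23.4, and 20.1 FPKM. The libraries thus differed in sex-linked transcripts within each group, and the part of sex in the values was not tested. FPKM values hold no read counts, so absolute depth is unknown, but the steps between low values put the depth between 0.927 and 1.19 times that of library WT 1. These are rough values, since a step was read from only 9 genes in WT 2 and from at most 25, in KO 2. Between 8338 and 11886 genes were listed at 0 in a library, most of them in WT 2, and they included 34 to 61 of the 3506 genes that averaged at least 20 FPKM, so a listed 0 can be a failed estimate. The tissue carried the markers of smooth muscle, with *Acta2* (α smooth muscle actin) between 396 and 2262 FPKM.

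*Kcnj8* and *Abcc9* are neighbours on chromosome 6 (build GRCm38, which mm10 follows). *Kcnj8* spans 142564837 to 142571614 and *Abcc9* spans 142587862 to 142702315, both on the minus strand, with 16.2 kb between them. *Kcne4* lies on chromosome 1 from 78816758 to 78820028 on the plus strand. These 3 genes were lower in every KO library than in every WT library, and the DNA before their starts is shown for that reason. The sequences are from RefSeq on GRCm38.p6, 5′ to 3′ on the strand of the gene, and stop where the first exon in GENCODE vM21 begins. Capitals mark matches to CANNTG, the E-box bound by basic helix-loop-helix factors, or to CATTCC or its reverse complement, a motif bound by TEAD factors.
Kcnj8, chr6:142571615-142571864, 250 bases: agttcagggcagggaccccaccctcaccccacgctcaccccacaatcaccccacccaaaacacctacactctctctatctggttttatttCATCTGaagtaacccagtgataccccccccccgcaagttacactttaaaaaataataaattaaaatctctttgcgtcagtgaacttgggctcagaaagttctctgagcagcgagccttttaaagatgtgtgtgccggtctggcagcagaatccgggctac
Abcc9, chr6:142702316-142702524, 209 bases: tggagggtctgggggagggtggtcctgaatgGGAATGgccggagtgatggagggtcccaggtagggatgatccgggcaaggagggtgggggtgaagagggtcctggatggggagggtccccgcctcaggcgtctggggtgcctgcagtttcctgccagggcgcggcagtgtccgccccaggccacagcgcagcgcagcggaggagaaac
Kcne4, chr1:78816661-78816757, 97 bases: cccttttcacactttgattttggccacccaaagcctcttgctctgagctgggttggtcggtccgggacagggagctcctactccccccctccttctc

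RefSeq windows of 300 bases, from 250 before to 50 after a start, were at hand for 7 of the 8 genes, with 8 windows in all because *Kcnq5* had a second start. The neighbours *Kcnj8* and *Abcc9* differed in base composition, with a GC content of 53.3% in the *Kcnj8* window and 65.7% in that of *Abcc9*. The *Kcnma1* window was richest, at 78.0%, against a median of 52.7% over all 32851 windows. The CArG box, which binds serum response factor and is common before contractile genes, matched in 0 of the 8 windows and in 1.63% of all windows. The MEF2 site matched in the *Abcc9* window, starting 8 bases before the start, and in 3.19% of all windows. CATTCC was found in the *Abcc9* and *Kcna5* windows, against 14.7% of all windows, and CANNTG in 5 of the 8, against 72.3%. TATAAA matched in 0 of the 8 and in 13.6% of all windows. Both strands were searched, and a match describes letters only.

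**Figure D1:**
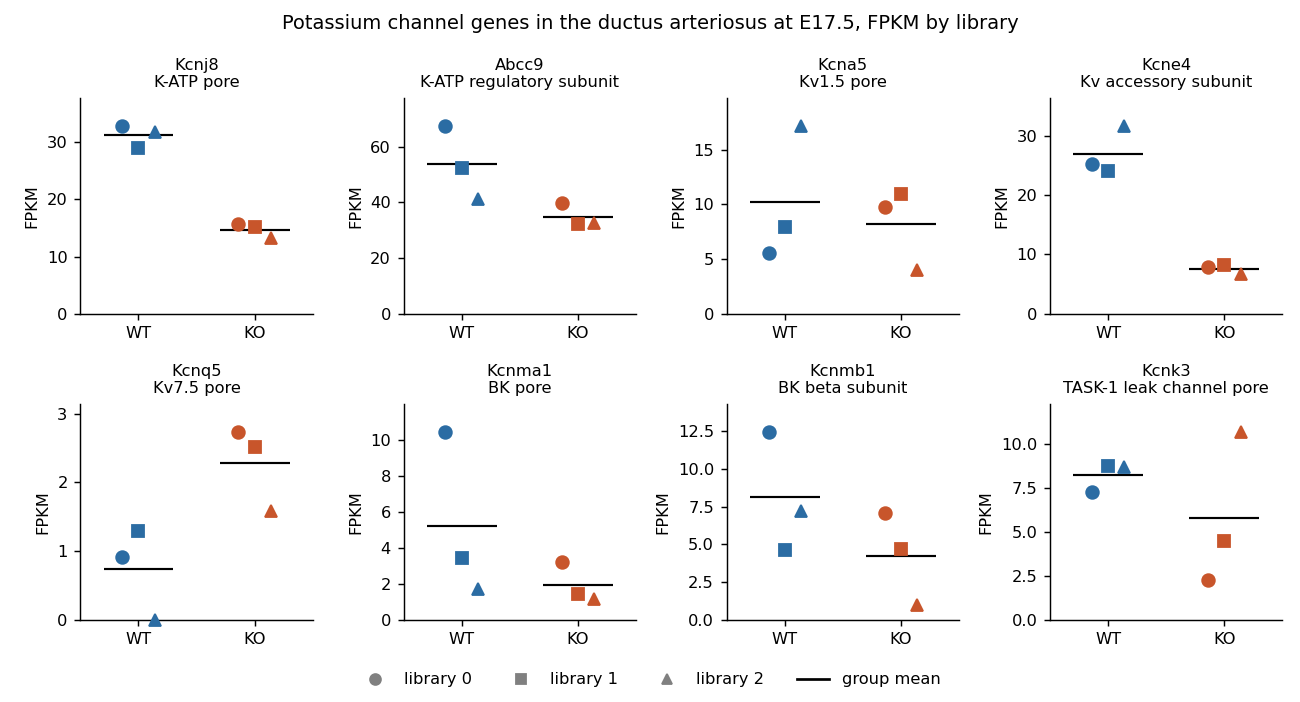
FPKM of each potassium channel gene (vertical axes, linear from 0, each with its own range) in the 3 WT libraries (blue) and 3 KO libraries (orange), with the library number as the symbol and the group mean as a line. *Kcnj8*, *Abcc9*, and *Kcne4* lie lower in all 3 KO libraries and *Kcnq5* higher, whereas the groups overlap for the other 4 genes.

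The ATP-sensitive channel had the highest levels of the set. *Kcnj8* was at 32.8, 29.0, and 31.8 FPKM in libraries WT 0, WT 1, and WT 2 and at 15.6, 15.2, and 13.2 FPKM in KO 0, KO 1, and KO 2, the order kept below. The libraries of each group were close together and the groups lay far apart. The mean was 31.2 ± 1.98 FPKM (SD, n = 3) in WT and 14.7 ± 1.26 FPKM (SD, n = 3) in KO, which is 2.13-fold lower, and its log2 fold change, taken throughout as KO minus WT of log2(FPKM + 0.1), was -1.09 (standard error 0.19). *Abcc9*, which encodes the regulatory subunit that binds nucleotides and channel-opening drugs, was at 67.5, 52.4, and 41.4 FPKM in WT and at 39.8, 32.2, and 32.5 FPKM in KO. The lowest WT library and the highest KO library were nearly equal, so that the absence of overlap rests on a small gap, and the groups overlapped after quantile normalization or upper quartile scaling. Its mean was 53.8 ± 13.1 FPKM (SD, n = 3) in WT and 34.8 ± 4.29 FPKM (SD, n = 3) in KO, and the log2 fold change was -0.60 (standard error 0.22). The antisense transcript *5330439B14Rik* shares exon bases with *Abcc9*, and since the strand setting of the library is not given in the sources used here, its reads cannot be told apart from those of *Abcc9*.

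The subunits of the ATP-sensitive channel differed by unequal amounts. FPKM is per length, so the levels of the subunits can be set side by side within a library. With 0.1 added to each value, *Abcc9* stood to *Kcnj8* as 2.05, 1.80, and 1.30 to 1 in WT and as 2.54, 2.12, and 2.44 to 1 in KO. Every KO library had a higher ratio than any WT library, because *Kcnj8* was lower in KO by a larger factor than *Abcc9*. On the log2 scale the ratio was 0.48 higher in KO, and between 0.29 and 0.62 higher with each library left out in turn.

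*Kcne4* had the largest negative log2 fold change of the 8 genes. It was at 25.2, 24.0, and 31.6 FPKM in WT and at 7.87, 8.17, and 6.71 FPKM in KO, with a mean of 26.9 ± 4.09 FPKM (SD, n = 3) against 7.58 ± 0.769 FPKM (SD, n = 3). The lowest WT library was well above the highest KO library, and the mean was 3.55-fold lower in KO. The log2 fold change was -1.81 (standard error 0.24), and 1.92% of the 12955 tested genes had a lower one.

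The pore proteins of voltage-gated channels did not share the pattern of *Kcne4*. *Kcna5* (chromosome 6 of GRCm38, 126532551 to 126535412) was at 5.51, 7.95, and 17.2 FPKM in WT and at 9.74, 10.9, and 4.004 FPKM in KO. The highest value was in WT 2 and the lowest in KO 2, and the other 4 libraries were interleaved. The log2 fold change was -0.27 (standard error 0.55), and it turned to 0.18 without KO 2, to 0.19 without WT 2, and to 0.084 without the 2 libraries highest in heart muscle genes. As a result, *Kcne4* and *Kcna5* traded places in part: the ratio of *Kcne4* to *Kcna5* was 4.51, 2.999, and 1.84 in WT and 0.809, 0.748, and 1.66 in KO. This ratio was chosen after the values were seen.

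*Kcnq5* (chromosome 1, 21398403 to 21961942) was the only gene of the 8 with a higher mean in KO. It was at 0.912 and 1.29 FPKM in WT 0 and WT 1, was listed at 0 in WT 2, and was at 2.73, 2.52, and 1.58 FPKM in KO. Every KO library was above every WT library, but all values were low and the gene passed the filter of a mean FPKM of at least 1 only through the KO libraries. The log2 fold change was 2.16 (standard error 1.26) and was 0.97 without WT 2, and the groups overlapped after quantile normalization. *Gm26580*, on the opposite strand, shares exon bases with it. Neurons also express *Kcnq5*. The summed FPKM of 12 neuron genes was 27.8 to 41.4 in WT and 64.0 to 90.9 in KO. Of the 9 tested genes, 8 had a positive log2 fold change, against 55.6% of all tested genes. For 3 of them the KO libraries were higher without overlap, against 8.21% of all tested genes. None of the 9 passed in limma (smallest adjusted p = 0.545). *Th* and *Dbh*, which mark sympathetic neurons, were near 0 in both groups and did not reach the filter. *Th* was at 0 in all WT libraries and at 0.286, 0, and 1.87 FPKM in KO. *Dbh* was at 0, 0.481, and 0 FPKM in WT and at 0, 0.964, and 1.37 FPKM in KO. The part of neurons in the *Kcnq5* value was not tested.

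The BK channel subunits varied widely within each group. *Kcnma1* (chromosome 14, 23289431 to 24014491) was at 10.4, 3.46, and 1.74 FPKM in WT and at 3.18, 1.45, and 1.18 FPKM in KO. The highest WT library was 6.00 times the lowest, and KO 0 lay above WT 2. The log2 fold change was -1.13 (standard error 0.79) and became -0.45 without WT 0, -1.71 without WT 2, and -1.95 after quantile normalization. Part of an exon of *Kcnma1* is shared with the antisense transcript *4930519K11Rik*. *Kcnmb1* (chromosome 11, 33963013 to 33973641, inside *Kcnip1* on the opposite strand with no shared exon bases) was at 12.4, 4.66, and 7.23 FPKM in WT and at 7.09, 4.72, and 0.967 FPKM in KO. KO 0 and KO 1 lay within the WT range and KO 2 far below it. The log2 fold change was -1.19 (standard error 0.76), against -0.37 without KO 2. The ratio of *Kcnmb1* to *Kcnma1*, again with 0.1 added, was 1.19, 1.34, and 3.99 in WT and 2.19, 3.10, and 0.833 in KO, and these overlap.

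*Kcnk3* (chromosome 5, 30588170 to 30625271) was steady in WT and scattered in KO. It was at 7.25, 8.73, and 8.69 FPKM in WT and at 2.25, 4.48, and 10.7 FPKM in KO. KO 0 and KO 1 were below all WT libraries, whereas KO 2 was the highest library of the 6. The log2 fold change was -0.76 (standard error 0.56), with -0.24 without KO 0, -1.34 without KO 2, and -1.29 without the 2 libraries highest in heart muscle genes, WT 1 and KO 2. TASK-1 is also expressed in heart muscle, and the summed FPKM of 12 heart muscle genes was 1834 in WT 1 and 2085 in KO 2 against 165 to 695 in the other 4 libraries. The part of heart muscle in the *Kcnk3* value was not tested. The antisense transcript *Gm9899* shares exon bases with *Kcnk3*.

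**Figure D2:**
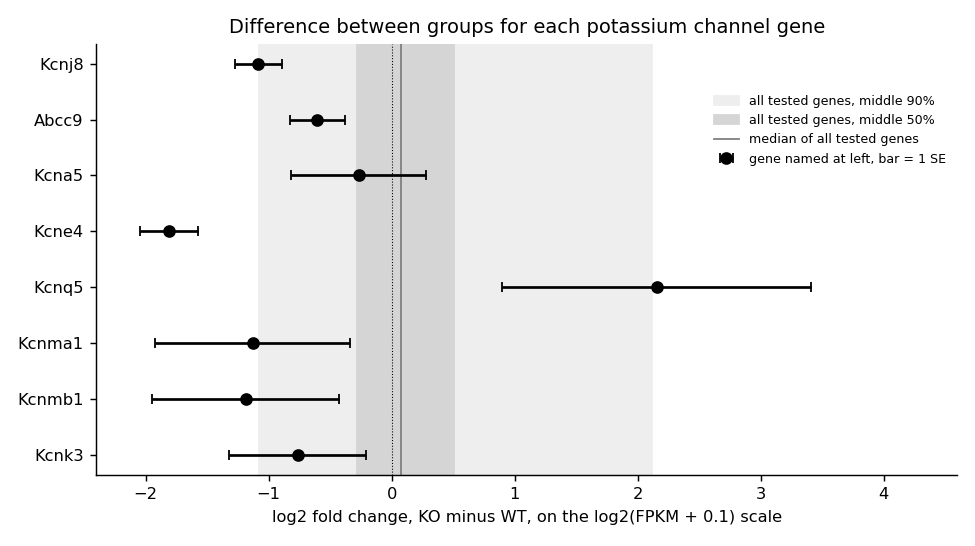
Log2 fold change of each gene, KO minus WT, on the log2(FPKM + 0.1) scale (horizontal axis) with bars of 1 standard error, over the middle 50% and middle 90% of all 12955 tested genes (grey bands) and their median (grey line). *Kcne4*, at -1.81, lies farthest below the wider band, *Kcnmb1*, *Kcnma1*, and *Kcnj8* lie at or just past its lower edge and *Kcnq5* at its upper edge, and the bars of *Kcnma1*, *Kcnmb1*, and *Kcnq5* are several times as long as those of *Kcnj8*, *Kcne4*, and *Abcc9*.

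The 12955 genes that averaged at least 1 FPKM over the 6 libraries were fitted with limma, and all 8 channel genes were among them. Of the 8, 7 had a negative log2 fold change, where 44.4% of all tested genes did, and 1 had a positive one, where 55.6% did. The groups did not overlap for 4 of the 8 genes, against 16.1% of all tested genes. These were 3 genes that were lower in KO (*Kcnj8*, *Abcc9*, and *Kcne4*), against 7.84%, and 1 that was higher (*Kcnq5*), against 8.21%. None of the 8 had an adjusted p under 0.05 in limma with Benjamini-Hochberg adjustment, a threshold that 0.00772% of all tested genes, or 1 gene, passed. The median log2 fold change of the 8 genes was -0.92, beside 0.072 for all tested genes. Since the genes were picked with these values known, the counts and the median describe the choice and are not support for a shared change. Of the standard errors, those of *Kcnj8*, *Abcc9*, and *Kcne4* lay below the median of 0.41 over all genes and those of the other 5 above it.

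The order of the levels differed between the groups in the middle of the list. In WT, *Abcc9* was highest and did not overlap with *Kcnj8*, *Kcnj8* and *Kcne4* overlapped with each other, and both lay above all others. *Kcna5*, *Kcnk3*, *Kcnmb1*, and *Kcnma1* followed at means of 10.2, 8.22, 8.11, and 5.20 FPKM, with overlapping ranges between neighbours, and *Kcnq5* was lowest. In KO, *Abcc9* and *Kcnj8* kept the first and second place without overlap, whereas *Kcne4*, at 7.58 FPKM, lay among *Kcna5* at 8.23 and *Kcnk3* at 5.80 FPKM and overlapped with both. The summed FPKM of the 8 genes was 132 to 162 in WT and 70.9 to 88.3 in KO. *Kcnj8*, *Abcc9*, and *Kcne4* made up 75.1% to 80.2% of that sum in WT and 69.7% to 74.0% in KO.

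The contractile genes of smooth muscle were lower in KO as well. The mean log2(FPKM + 0.1) of 15 contractile genes was 7.86, 7.06, and 7.003 in WT and 6.44, 6.26, and 5.66 in KO, a difference of -1.19, and in bulk tissue fewer SMCs and less RNA per SMC cannot be told apart. Relative to this mean in the same library, *Kcnj8* differed by 0.10 on the log2 scale, *Kcnma1* by 0.057, and *Kcnmb1* by 0.0011, each with overlapping groups. As estimated from all 6 libraries, their differences between the groups were thus about as large as that of the contractile genes. For *Kcnma1* and *Kcnmb1* this likeness is imprecise, with standard errors of 0.79 and 0.76. With 1 library left out, the log2 fold change ran from -1.71 to -0.45 for *Kcnma1* and from -1.74 to -0.37 for *Kcnmb1*. *Abcc9* was higher by 0.59 relative to the contractile genes, with every KO library above every WT library. *Kcne4* was lower by 0.62 relative to them, at -3.20, -2.47, and -2.02 in WT and at -3.45, -3.21, and -2.89 in KO, so that the groups overlapped at WT 0.

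The libraries within a group separated the genes further. WT 0 had the highest contractile mean, and *Abcc9*, *Kcnma1*, and *Kcnmb1* were also highest there. *Kcnj8* instead was nearly level across the WT libraries, *Kcne4* was highest in WT 2, and *Kcna5* was lowest in WT 0 of the 3. Over the 6 libraries, Pearson's r with the contractile mean was 0.93 for *Abcc9*, 0.91 for *Kcnj8*, 0.86 for *Kcnma1*, 0.85 for *Kcne4*, and 0.84 for *Kcnmb1*, and it was 0.16 for *Kcna5*, 0.11 for *Kcnk3*, and -0.38 for *Kcnq5*. These values describe 6 points that share the division into groups. Pericytes also carry *Kcnj8* and *Abcc9*, and 8 other mural cell genes, led by *Rgs5*, summed to 562 to 1258 FPKM in WT and 436 to 1203 FPKM in KO. Of the 7 tested genes of that list, 4 had a negative and 3 a positive log2 fold change, against 44.4% and 55.6% of all tested genes. The number without overlap was 0, against 16.1% of all tested genes, and the ranges of the sum overlapped between the groups. *Higd1b*, a pericyte marker, was listed at 0 in 4 libraries. The part of pericytes in the *Kcnj8* and *Abcc9* values was not tested.

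**Figure D3:**
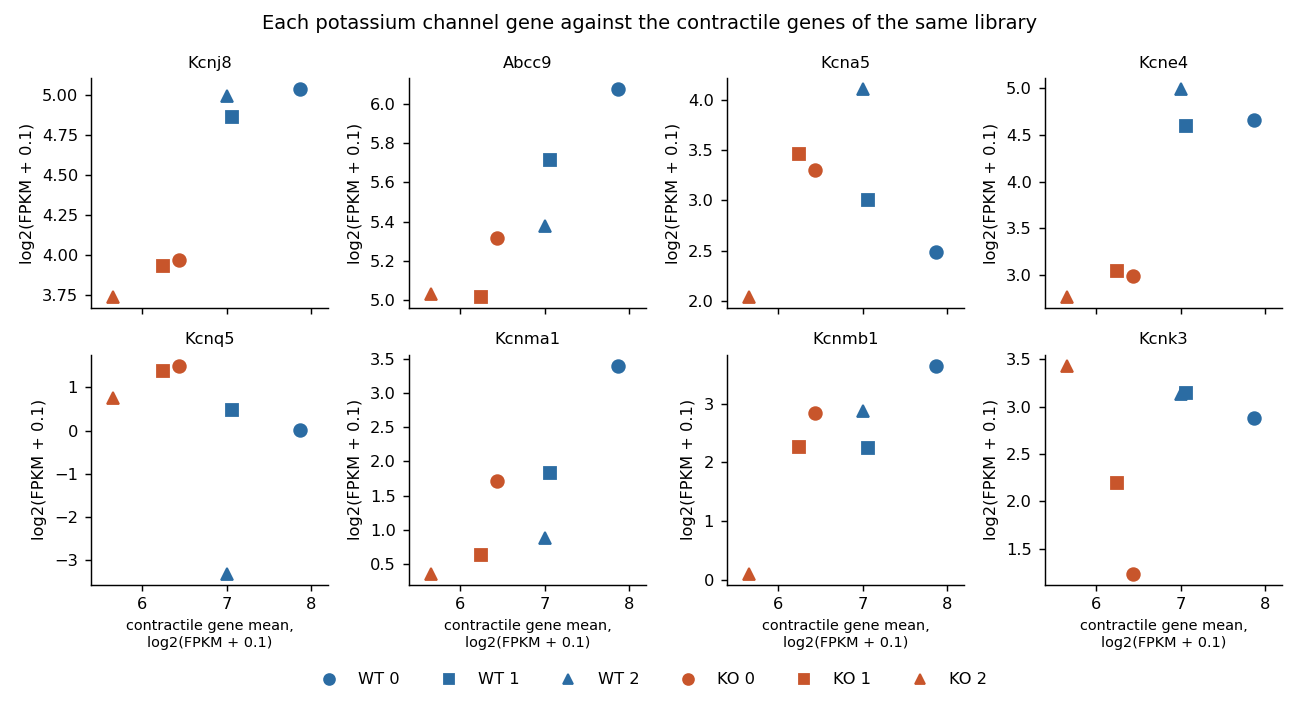
Log2(FPKM + 0.1) of each channel gene (vertical axes, each with its own range) against the mean log2(FPKM + 0.1) of 15 contractile genes in the same library (horizontal axes), with WT libraries in blue, KO libraries in orange, and the library number as the symbol. *Kcnj8* and *Kcne4* form separate WT and KO clusters, *Abcc9* and *Kcnma1* are highest in WT 0, and *Kcnk3* is highest in KO 2, the library with the lowest contractile mean.

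Among all tested genes, the one closest to *Kcne4* over the 6 libraries, after the heparan sulfate sulfatase gene *Sulf2* (Pearson's r = 0.996), was *Kcnj8* (r = 0.990). In the list for *Kcnj8*, *Kcne4* held place 5 of 12954. *Abcc9*, the partner of *Kcnj8* in the channel and its neighbour on the chromosome, held place 497 (r = 0.82). *Abcc9* and *Kcnma1* were close to each other (r = 0.94, place 44 of 12954 for *Kcnma1* in the list of *Abcc9*), and *Kcnma1* and *Kcnmb1* less so (r = 0.72). *Kcna5*, *Kcnk3*, and *Kcnq5* had an r between -0.74 and 0.50 with every other gene of the 8. These r values cover 6 points that share the division into groups, so they include the difference between WT and KO. The SD within groups on the log2 scale was 0.11 for *Kcnj8*, 0.18 for *Kcne4*, and 0.28 for *Abcc9*.

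The 3 genes most like each of the 8 were sought among genes averaging at least 5 FPKM. For *Kcnj8* they were *Nov*, which encodes a matricellular protein, *Sulf2*, and *Gm10532* (r = 0.995 to 0.996). *Nov* was at 109, 84.3, and 109 FPKM in WT and at 36.6, 30.9, and 24.2 FPKM in KO, and *Sulf2* at 116, 103, and 122 FPKM and at 52.5, 55.8, and 46.6 FPKM. For *Kcne4* they were *Sulf2*, *Kcnj8*, and *Epn1*. For *Abcc9* they were the histone genes *Hist2h2ac* and *Hist1h1e* and the glycogen phosphorylase gene *Pygb*. For *Kcnmb1* they were *Supt20*, *Atoh8*, and *Mrvi1*, the last of which encodes a substrate of cGMP-dependent protein kinase in smooth muscle, and for *Kcnma1* they were *Mpnd*, *Trip11*, and *Sntg2*. For *Kcna5* they included *Gm1821* and *Brd2*, for *Kcnk3* they were *Hnrnpu*, *Zfp553*, and *Crabp1*, and for *Kcnq5* they were *Brip1*, *Ttf2*, and *Map3k5*. Each r was the highest among many genes compared over 6 points and is given as a description only.

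The other potassium channel genes had more positive than negative log2 fold changes. The table held 86 other genes named Kcn with a family letter and number, or *Abcc8*, and 33 of them were tested. None had an adjusted p under 0.05 in limma (adjusted p = 0.486 to 0.973), and 4 had an unadjusted p under 0.05, a share to be read against 8.28% of all tested genes. Of the 33, 24 had a positive and 9 a negative log2 fold change, against 55.6% and 44.4% of all tested genes. Most of the 24 were listed at 0 in WT 2, so the count of signs leans on that library. *Kcnj3* and *Kcnip4*, for example, counted as positive (0.68 and 0.69) although their mean FPKM in KO was 73.1% and 76.3% of that in WT. The groups did not overlap for 9 that were higher in KO, against 8.21% of all tested genes, and for 3 that were lower, a share close to the 7.84% of all tested genes. Of the 9 that were higher, 5 had a WT mean under 1 FPKM and 5 were listed at 0 in a library, so they passed the filter through the KO libraries or rest on low values. A list by hand of 30 channel genes of vessels, all of them among the 86, had 19 of the 33 tested genes, and their summed FPKM was 28.8 to 51.9 in WT and 73.4 to 81.2 in KO. That sum thus ran opposite to the sum of the 8 genes.

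The most abundant of these were accessory subunits and pore proteins of other families. *Kcnab1*, which encodes a cytoplasmic β subunit of Kv1 channels, was at 5.71, 3.56, and 1.26 FPKM in WT and at 16.7, 22.0, and 6.99 FPKM in KO, with no overlap (log2 fold change 2.17, standard error 0.65, adjusted p = 0.535 from limma). *Kcna6*, a Kv1 pore gene, was at 2.33, 3.52, and 3.52 FPKM in WT and at 3.99, 10.5, and 14.03 FPKM in KO (log2 fold change 1.42, adjusted p = 0.588 from limma). The leak channel genes *Kcnk1* (log2 fold change -1.25, adjusted p = 0.601 from limma) and *Kcnk6* (log2 fold change -0.42, adjusted p = 0.746 from limma) were lower in every KO library. The groups overlapped for *Kcnip3*, *Kcnj2* (Kir2.1, an inward rectifier), *Kcnmb4*, and *Kcnj13*, with log2 fold changes from 0.30 to 2.24 and adjusted p values from 0.687 to 0.897 in limma. *Kcnj2* was at 0.0160 FPKM in WT 2 and at 5.43 to 12.02 FPKM in the other 5 libraries.

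The genes in this paragraph, related to the 8 by subunit family, were chosen once their values were known. *Abcc8*, which encodes the sulfonylurea receptor SUR1, was at 1.69, 1.52, and 1.80 FPKM in WT and at 2.75, 2.98, and 2.47 FPKM in KO (log2 fold change 0.68, standard error 0.58, adjusted p = 0.733 from limma). It was higher in every KO library while its relative *Abcc9* was lower in each, although *Abcc9* remained the more abundant by far. With 0.1 added, the ratio of *Abcc8* to *Abcc9* was 0.0265, 0.0309, and 0.0459 in WT and 0.0715, 0.0953, and 0.0788 in KO. *Kcna2*, a Kv1 pore gene, was at 0.352, 0.433, and 0.253 FPKM in WT and at 2.56, 5.77, and 3.95 FPKM in KO (log2 fold change 3.18, standard error 0.84, adjusted p = 0.486 from limma). Kv1 channel genes are also abundant in nerves, and 10 Schwann cell genes summed to 28.3 to 52.1 FPKM in WT and 61.6 to 187 FPKM in KO. Of these 10, 9 had a positive log2 fold change, against 55.6% of all tested genes. For 4 the KO libraries were higher without overlap, against 8.21% of all tested genes. The part of nerve in the values of *Kcna2*, *Kcna6*, and *Kcnab1* was not tested.

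**Figure D4:**
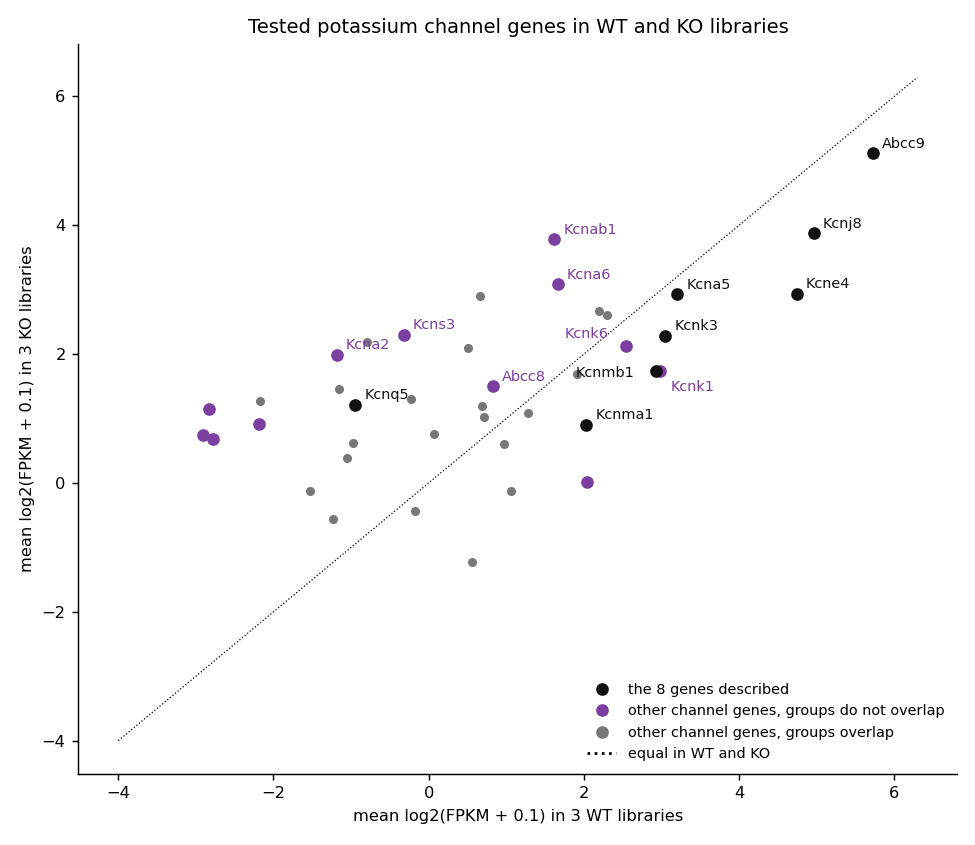
Mean log2(FPKM + 0.1) in the 3 KO libraries (vertical axis) against that in the 3 WT libraries (horizontal axis) for the 8 channel genes (black) and the 33 other tested channel genes (purple where the groups do not overlap, grey where they do), with equality as a dotted line. Names are given for the black points and some of the purple ones, and for no grey point. The abundant *Abcc9*, *Kcnj8*, and *Kcne4* lie below the line, and *Kcnab1*, *Kcna6*, *Kcns3*, *Kcna2*, and *Abcc8* above it.

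The calcium channels and stores that respond to the membrane potential, or supply the calcium that opens BK channels, had a median log2 fold change of 0.22. Of 17 such genes, all tested, 0 had an adjusted p under 0.05 in limma (smallest adjusted p = 0.584), 6 had a negative and 11 a positive log2 fold change, and 3 were higher without overlap. Among all tested genes 55.6% were positive and 8.21% were higher without overlap. The calcium pump gene *Atp2a2* had a log2 fold change of -0.14, the IP3 receptor gene *Itpr1* one of 0.22, and the calcium channel subunit gene *Cacnb3* one of 0.026. *Cacna1c*, the pore of the L-type channel, named after its values were seen, was at 11.8, 10.96, and 9.06 FPKM in WT and at 11.1, 8.58, and 7.46 FPKM in KO (log2 fold change -0.24, adjusted p = 0.801 from limma).

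Markers of several other cell types that a dissected DA could hold had more positive than negative log2 fold changes, beside 55.6% positive among all tested genes. Positive values were found for 7 of 7 tested erythroid and 8 of 10 endothelial genes, as for the neuron and Schwann cell genes above, and for 3 of 8 macrophage, 5 of 11 heart muscle, and 2 of 3 epithelial genes. No gene of these lists had an adjusted p under 0.05 in limma. Endothelial genes, led by *Pecam1*, summed to 395 to 549 FPKM in WT and 486 to 750 FPKM in KO, and macrophage genes, led by *Lyz2*, to 44.0 to 250 and 48.0 to 284 FPKM. Erythroid genes, led by *Hba-a1*, summed to 4355 to 8751 FPKM in WT and 4980 to 27523 FPKM in KO, and epithelial genes, led by *Krt19*, to 35.1 to 109 and 51.0 to 79.4 FPKM. *Actc1* led the heart muscle genes, *Stmn2* the neuron genes, and *Fabp7* the Schwann cell genes. The part of these cells in the values of the 8 genes was not tested. Without KO 0, the library with both *Xist* and *Ddx3y*, the log2 fold change was -1.13 for *Kcnj8*, -0.70 for *Abcc9*, and -1.84 for *Kcne4*.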

How the data were processed

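DA at E17.5 was profiled by bulk RNA-Seq in 3 WT and 3 KO libraries, as labelled. The authors trimmed the reads, aligned them to mm10 with TopHat2, and obtained per-gene values with Cufflinks and Cuffdiff. The deposited values are FPKM, 1 column per library, and versions, gene annotation, strand, and any scaling between libraries are not given in the sources used here. The study names littermate controls, at least 3 mice per group for in vivo work, and more animals per group for this assay than the libraries used here. No source ties a library to an embryo, so p values measure the spread between libraries.

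The deposited FPKM were put on the log2 scale after adding 0.1. Genes averaging at least 1 FPKM entered a limma 3.58.1 fit (R 4.3.3, lmFit, eBayes with trend, two-sided, Benjamini-Hochberg adjustment, threshold 0.05). Cuffdiff needs aligned reads and was not repeated. With 3 libraries against 3, an exact permutation test cannot give a p under 0.1 and was not used. The fit was tested on simulated data. Gene positions came from GENCODE vM21 on GRCm38, and promoter windows from RefSeq.

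The 8 genes, the gene lists, and the tests were chosen with earlier results of these data known. Beside the 8, the text names the 8 other channel genes with the highest mean FPKM and any called, the 3 most abundant calcium genes, the most abundant gene of each cell type list, and the 3 genes most like each member, of which 1 for *Kcna5* is not reported here. Others are marked as chosen after their values were seen.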

Additional observations from a re-analysis of the deposited data

How the results depend on the processing

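The 8 genes kept the sign of their log2 fold change, and moved by less than 1 SD between libraries, under the alternatives for pseudocount, filter, scaling, trend, block, and omitted libraries, except that *Kcna5* changed sign in 3 of its fits. A filter at a mean of 5 FPKM removed *Kcnma1* and *Kcnq5*. The median log2 fold change of the 8 ranged from -0.93 to -0.71 and the number lower in KO from 6 to 7. The number without overlap between groups was 4, against 16.1% of all tested genes. It became 2 with quantile normalization (*Kcnj8* and *Kcne4*), against 15.4%, and 3 with upper quartile scaling (*Abcc9* overlapped), against 16.2%. With the filter at 5 FPKM it was 3 (*Kcnq5* was removed), against 17.2%. Overlap is rarer by construction with fewer libraries. The number was 6 without the 2 libraries highest in heart muscle genes, against 38.0% of all tested genes. It was 4 to 5 when 1 library was omitted, against 24.0% to 28.9%. The number of genes called, 1, was 2 when the mean-variance trend was dropped and 2 without the 2 libraries highest in heart muscle genes, all higher in KO. Omitting 1 library gave 1 to 2. The other channel genes stayed at 0 called in all alternatives. Their number higher without overlap, 9, became 5 with quantile normalization and 2 with the filter at 5 FPKM. Their number lower, 3, became 5 without the 2 libraries highest in heart muscle genes, where 38.0% of all tested genes had no overlap in either direction. These alternatives were chosen after the data were seen.

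The deviations of same-numbered libraries from their group means had correlations of 0.122, -0.0761, and -0.0088, and those of WT 1 with KO 2 had 0.1445. The numbers thus gave no sign of pairing the libraries. Such correlations cannot exclude a pairing, since other differences between libraries can hide it. With the replicate number as a block, 1 gene and 0 of the other channel genes were called. FPKM without counts gives no depth-based error, and 3 libraries per group limit the precision.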
